A study of Sus scrofa with 4 samples.

Results

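ITGB2, PIK3R6 and MIF are 3 genes linked to leukocytes, taken from the 22658 features measured in the longissimus dorsi muscle of growing Laiwu pigs, a Chinese breed known for marbled meat. They were named by identity, with earlier results of these data known, so they are not an unselected sample of the features. ITGB2 (ENSSSCG00000025133) and MIF (ENSSSCG00000010067) were found through the gene lists published with the study, and PIK3R6 by its identifier, ENSSSCG00000017990. The 3 were compared across 4 ages as the labels give them, 60, 120, 240 and 400 d, with 3 castrated male wild type pigs at each age and 1 RNA-seq library per pig. All pigs were kept and fed alike, so age was the only labelled difference between the groups. The study asked which transcripts change while fat builds up between the muscle fibres.

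ITGB2 encodes CD18, the beta chain that leukocyte integrins share. It pairs with alpha chains such as CD11a (ITGAL) and CD11b (ITGAM), and the pairs hold leukocytes to the vessel wall through ICAM ligands. PIK3R6 encodes p84, a regulatory subunit of PI3K gamma, the lipid kinase that acts behind G protein-coupled chemokine receptors in leukocytes, and PIK3R5 (p101) is the alternative subunit. MIF encodes macrophage migration inhibitory factor, a cytokine made by many cell types, muscle and fat cells among them, which signals through CD74 with CD44 and through chemokine receptors.

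On the Sscrofa10.2 assembly the files place ITGB2 on the minus strand at chr13:217444736-217475903, PIK3R6 on the minus strand at chr12:56661599-56723007 and MIF on the minus strand at chr14:53277307-53283367. The transcript lengths used in the files were 4263 bases for ITGB2, 3119 bases for PIK3R6 and 539 bases for MIF. No other feature overlapped any of the 3 genes. PIK3R5 was the neighbour of PIK3R6 on the same strand, with 0 bases of overlap.

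The 12 libraries held between 9713813 and 13325327 counts (median 11201318), so that 3 counts corresponded to 0.225 to 0.309 CPM. The 3 matched muscle fibre genes summed to between 18100 and 72800 FPKM, so muscle RNA was present in every library. The feature that carries the ACTA1 symbol, skeletal muscle actin, was listed at 0 counts in 7 of the 12 libraries and among the highest in others. At 120 d, library 2 stood apart in the leukocyte genes: of the 34 leukocyte marker genes with any count, 27 were highest there. At 400 d, library 2 was the opposite, with 28 of the 34 at their lowest. It was not low in leukocyte genes alone: it was also lowest in 3 of 3 fibroblast and 2 of 4 endothelial genes.

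The ages themselves carry a doubt that touches every direction below. FPKM values, fragment counts scaled by transcript length and by library size, in the published gene lists were compared with those in the deposited files. The lists' columns for 60, 120, 240 and 400 d matched the libraries labelled 400, 240, 60 and 120 d, with a median absolute log2 difference of 0.0194 to 0.0196, against 0.528 to 1.52 for the other pairings. The read totals that the study gives per library, in contrast, ran in much the same order as the count totals of the libraries with the same labelled age and number. Which of the 2 sets of ages is right was not settled. Levels are given here by labelled age. With the ages of the lists, 15 of the 18 changes of ITGB2, PIK3R6 and MIF between pairs of ages turned in sign, while the comparison over all 4 ages is the same under either naming.

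The 3 genes sat at very different levels per transcript length. MIF was between 82.3 and 246 FPKM in the 12 libraries, or percentiles 96.8 to 98.4 of all features. ITGB2 lay between 0.396 and 13.7 FPKM, or percentiles 46.1 to 85.5, and PIK3R6 between 0.185 and 1.51 FPKM, or percentiles 39.2 to 53.4. The spread from the lowest to the highest library was 2.98-fold for MIF, 34.5-fold for ITGB2 and 8.14-fold for PIK3R6. The counts behind these levels were 363 to 847 per library for MIF, 17 to 608 for ITGB2 and 8 to 65 for PIK3R6.

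**Figure D1:**
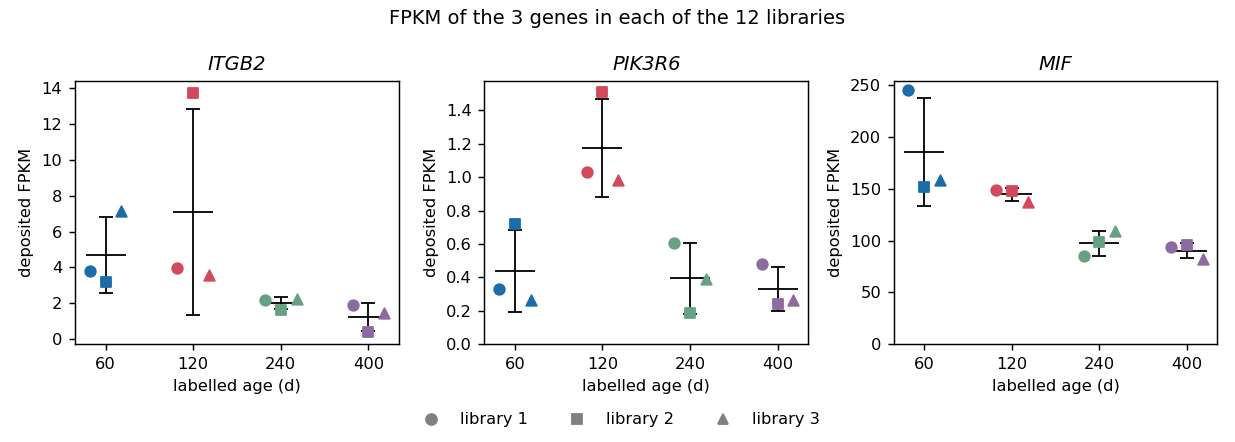
FPKM (vertical axis, linear) of ITGB2, PIK3R6 and MIF in each library against labelled age in days, with 1 point per library, the mean as a horizontal bar and the SD (n = 3) as the error bar. At 120 d, library 2 is the highest point for ITGB2 (13.7 FPKM) and PIK3R6 (1.51 FPKM), while MIF falls in steps from 185 FPKM on average at 60 d to 90.5 FPKM at 400 d.

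ITGB2 was high at the labelled ages of 60 and 120 d and low at 240 and 400 d. At 60 d its FPKM was 3.79, 3.17 and 7.13 in libraries 1, 2 and 3, and at 120 d it was 3.97, 13.7 and 3.60. At 240 d it was 2.17, 1.64 and 2.25, and at 400 d 1.89, 0.396 and 1.49. Each library of 60 or 120 d lay above each library of 240 or 400 d, whereas 60 d overlapped 120 d and 240 d overlapped 400 d. How many of all features split between the earlier and the later ages in this way was not counted. In order of age the means were 4.70 ± 2.13, 7.08 ± 5.71, 2.02 ± 0.332 and 1.26 ± 0.773 FPKM (SD, n = 3 each). The order of the means was 120, 60, 240 and 400 d, and neither the first pair nor the last pair in that order differed beyond its spread. In bulk muscle, fewer cells that express a gene and less of its RNA per cell cannot be told apart.

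Over the 4 ages the level of ITGB2 differed (F = 5.09 on log2(FPKM + 0.1), exact permutation p = 0.00968 over 15400 arrangements of the 12 libraries). The test uses which libraries form a group and not the order of the groups, so it is the same for either naming of the ages. Without library 2 of 400 d the exact permutation p was 0.0573, and on FPKM without a logarithm it was 0.0926.

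Between pairs of ages, ITGB2 passed the test once. From 120 to 400 d it fell by 2.44 on the log2 scale (SE 0.66, edgeR adjusted p = 0.0440), a 5.63-fold lower mean FPKM, in a comparison in which 16.3% of all features tested were called and 9.21% were called lower. This call was lost when any 1 of the 6 libraries was left out, with edgeR adjusted p from 0.0536 to 0.108. Without library 2 of 120 d the change was -1.54 (SE 0.50, edgeR adjusted p = 0.0906), and without library 2 of 400 d it was -2.04 (SE 0.62, edgeR adjusted p = 0.0988).

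The other falls of ITGB2 did not pass. The log2 change was -1.15 (SE 0.34) from 60 to 240 d, -1.76 (SE 0.53) from 60 to 400 d and -1.82 (SE 0.50) from 120 to 240 d, with edgeR adjusted p of 0.0868, 0.0587 and 0.0651. Without library 2 of 120 d the change from 120 to 240 d was -0.91 (SE 0.22, edgeR adjusted p = 0.0738), without library 3 of 60 d that from 60 to 240 d was -0.72 (SE 0.26), and without library 2 of 400 d that from 60 to 400 d was -1.38 (SE 0.41). In all 3 pairs, and in the pair 120 to 400 d, the later libraries lay wholly below the earlier ones, as did those of 17.3%, 21.1%, 18.4% and 21.8% of features in the pairs 60 to 240, 60 to 400, 120 to 240 and 120 to 400 d. Where groups of 3 do not overlap, the exact permutation test of that pair alone gives 0.1, the smallest p it can reach.

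Between neighbouring ages at either end, ITGB2 did not separate. From 60 to 120 d the log2 change was 0.65 (SE 0.54, edgeR adjusted p = 0.811), and it turned to -0.25 (SE 0.38) without library 2 of 120 d. From 240 to 400 d it was -0.62 (SE 0.46, edgeR adjusted p = 0.607), and -0.22 (SE 0.26) without library 2 of 400 d. These 2 pairs gave few calls anywhere: 0.0% of features passed in each by edgeR, although 999 and 1591 had an unadjusted p under 0.05, and DESeq2 called 31 and 163.

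**Figure D2:**
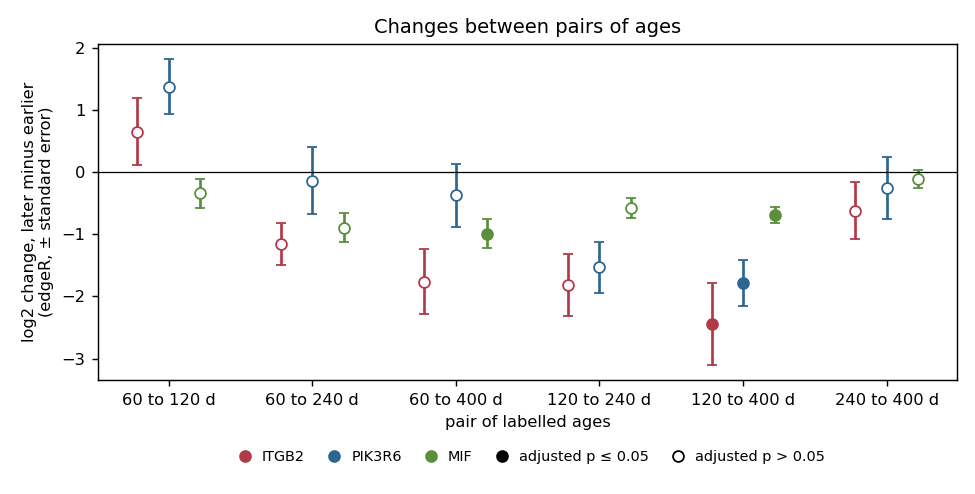
The log2 change from the earlier to the later labelled age (vertical axis, edgeR, ± standard error) of each gene in the 6 pairs of ages; filled points have an adjusted p of 0.05 or below. ITGB2, PIK3R6 and MIF are filled together from 120 to 400 d (-2.44, -1.79 and -0.69), and MIF alone from 60 to 400 d (-0.99).

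PIK3R6 peaked in the pigs labelled 120 d and rested on few counts throughout. The 12 libraries held 277 counts of it in all, and 11 of the 12 had fewer than 50, so counting alone gives a relative error of 12.4% to 35.4% per library. The 60 d libraries held 10, 32 and 9 counts and the 120 d libraries 36, 65 and 34, followed by 24, 8 and 16 in the 240 d group and 23, 10 and 10 in the 400 d group. The 95% Poisson interval ran from 50.2 to 82.8 for the 65 counts of library 2 at 120 d and from 3.45 to 15.8 for the 8 counts of library 2 at 240 d. These intervals cover counting error only.

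In FPKM, PIK3R6 stood at 0.330, 0.720 and 0.263 at 60 d, and at 1.03, 1.51 and 0.986 at 120 d. It was 0.609, 0.185 and 0.392 at 240 d, and 0.480, 0.242 and 0.264 at 400 d. All 3 libraries of 120 d exceeded the 9 others, while the libraries of 60, 240 and 400 d overlapped one another. The share of all features with 1 age above the rest was not counted. The means were 0.438 ± 0.247, 1.17 ± 0.289, 0.395 ± 0.212 and 0.328 ± 0.131 FPKM at 60, 120, 240 and 400 d (SD, n = 3 each). In the order 120, 60, 240 and 400 d, the last 3 did not differ beyond their spread.

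Over the 4 ages PIK3R6 gave F = 5.89 (exact permutation p = 0.0290). Leaving out library 1, 2 or 3 of 120 d raised the exact permutation p to 0.0657, 0.102 or 0.0607. From 120 to 400 d PIK3R6 fell by 1.79 on the log2 scale (SE 0.37, edgeR adjusted p = 0.0232), a 3.57-fold lower mean FPKM. That call was lost without library 2 of 120 d (-1.54, edgeR adjusted p = 0.0534) and without library 2 or 3 of 400 d (-1.66 and -1.61, edgeR adjusted p = 0.0684 and 0.0711).

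The libraries of PIK3R6 were also apart in the pairs 60 to 120 d and 120 to 240 d, without passing the test. The log2 change was 1.38 (SE 0.44, edgeR adjusted p = 0.644) from 60 to 120 d, where 11.9% of features had groups that did not overlap in 1 direction or the other. It was -1.53 (SE 0.41, edgeR adjusted p = 0.0625) from 120 to 240 d, and -2.02 (edgeR adjusted p = 0.0487) there without library 1 of 240 d. In that pair 18.4% of features had the later libraries wholly below the earlier ones, and 5.95% were called. Among 60, 240 and 400 d the log2 changes were -0.14 (SE 0.54) from 60 to 240 d, -0.37 (SE 0.51) from 60 to 400 d and -0.25 (SE 0.50) from 240 to 400 d. The edgeR adjusted p of these 3 lay at 0.887, 0.624 and 0.866, and each turned positive without 1 library: 0.46 and 0.19 without library 2 of 60 d in the first pair and the second, 0.16 without library 2 of 240 d in the first, and 0.24 without library 1 of 240 d in the last.

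MIF was the most even of the 3 and stepped down with the labelled age. Its FPKM was 246, 152 and 159 at 60 d and 149, 148 and 137 at 120 d. It was 84.9, 98.9 and 109 at 240 d and 93.6, 95.7 and 82.3 at 400 d. All libraries of 60 and 120 d exceeded all of 240 and 400 d, a split whose share over all features was not counted. In FPKM those of 60 d also lay above those of 120 d, by 152 against 149 at the nearest point. In CPM, counts scaled by the library total alone, the groups of 60 and 120 d overlapped: 86.8, 62.4 and 57.2 at 60 d against 59.3, 66.2 and 56.1 at 120 d. The deposited FPKM was thus not in a fixed proportion to CPM from library to library, and the reason was not tested. The means were 185 ± 52.1, 145 ± 6.41, 97.7 ± 12.2 and 90.5 ± 7.20 FPKM (SD, n = 3 each). The first step, 60 to 120 d, did not pass the test, and 240 d overlapped 400 d.

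Over the 4 ages MIF gave F = 13.8 (exact permutation p = 0.000714), and with any 1 of the 12 libraries left out the exact permutation p stayed between 0.00013 and 0.00338. The 3 genes were the only ones put to this test. The share of the variance of log2(FPKM + 0.1) that lay between ages was 83.8% for MIF, 68.8% for PIK3R6 and 65.6% for ITGB2. Some of the variance lies between small groups even where age has no effect, and the shares were not corrected for that.

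MIF passed the test between 2 pairs of ages. From 60 to 400 d it fell by 0.99 on the log2 scale (SE 0.23, edgeR adjusted p = 0.0294), with 15.0% of features called and 7.71% called lower. From 120 to 400 d it fell by 0.69 (SE 0.13, edgeR adjusted p = 0.0212), a 1.60-fold lower mean FPKM. The first call was lost without library 1, 2 or 3 of 400 d (-1.04, -1.05 and -0.93, edgeR adjusted p = 0.0864, 0.0950 and 0.0980). The second was lost without library 1 of 120 d (-0.67, edgeR adjusted p = 0.0511) or library 1, 2 or 3 of 400 d (-0.72, -0.73 and -0.63, edgeR adjusted p = 0.0576, 0.0536 and 0.0651).

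The remaining changes of MIF did not pass. They were -0.34 (SE 0.23) from 60 to 120 d, -0.89 (SE 0.24) from 60 to 240 d, -0.57 (SE 0.16) from 120 to 240 d and -0.11 (SE 0.15) from 240 to 400 d. The edgeR adjusted p of the 4 was 0.774, 0.0778, 0.0628 and 0.786. Without library 1 of 60 d the first was -0.09 (SE 0.17), and without library 3 of 240 d the last was -0.03 (SE 0.17). From 60 to 120 d the later libraries lay below the earlier ones in FPKM in 5.65% of features, MIF among them though not in CPM, and from 60 to 240 d 2.27% of all features were called. MIF reached its highest level in library 1 of 60 d, which also held the most RNA of the erythroid list (HBB, ALAS2, GYPC and 1 more gene), with a summed level of 1200 FPKM against 254 and 383 in the other libraries of 60 d. Among the pigs of 120, 240 and 400 d that sum spanned 50 to 241, 145 to 286 and 67.4 to 113 FPKM, and HBB, the beta chain of haemoglobin, was above 0 in all 12 libraries. Without library 1 of 60 d the change of MIF from 60 to 400 d was -0.74 (SE 0.17, edgeR adjusted p = 0.0326). The part of blood RNA in the level of MIF was not tested.

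Because these pairs share libraries (120 d enters 3 of the 6, for example), the calls for 60 to 400 d and 120 to 400 d are not independent of each other. The study had already reported each of the 3 genes as higher at the later of 2 adjacent stages, by its own ages. Counts of calls among them are therefore not those of an unselected set. Counted together, 3 of 3 genes were called from 120 to 400 d, beside 16.3% of all features, 1 of 3 from 60 to 400 d, beside 15.0%, and 0 of 3 in the other 4 pairs, beside 0.0% to 5.95%. In those 4 pairs 6 of the 12 changes had an unadjusted edgeR p under 0.05. Over all features that p was reached by 999 of 12945 from 60 to 120 d and 3474 of 12926 from 60 to 240 d. It was reached by 4090 of 12993 from 120 to 240 d and 1591 of 12660 from 240 to 400 d. DESeq2 called 0 of 3 in the pairs 60 to 120 d and 240 to 400 d, beside 31 of 12945 and 163 of 12660 features. It called 2 of 3 from 60 to 240 d and from 60 to 400 d, beside 1430 of 12926 and 2784 of 12976. In the pairs 120 to 240 d and 120 to 400 d it called 3 of 3, beside 2087 of 12993 and 2945 of 12989.

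The integrin partners of ITGB2 were low and followed library 2 of 120 d. ITGAL (CD11a) was 0.529, 0.573 and 1.81 FPKM in the 60 d group, 1.04, 3.4 and 1.22 in the 120 d group, 1.07, 0.530 and 0.549 in the 240 d group and 0.809, 0.477 and 0.868 in the 400 d group. ITGAM (CD11b) was 0.729, 0.825 and 0.813 FPKM in the 60 d group, 0.723, 3.82 and 0.985 in the 120 d group, 0.941, 0.525 and 0.844 in the 240 d group and 0.593, 0.192 and 0.374 in the 400 d group. Neither alpha chain showed the split between the earlier and the later ages that ITGB2 had, since their libraries of 60 d overlapped those of 240 d. ITGAM fell by 2.20 on the log2 scale from 120 to 400 d (SE 0.62, edgeR adjusted p = 0.0497), and ITGAL gave -1.48 (SE 0.49, edgeR adjusted p = 0.0710). The call of ITGAM was lost without library 2 of 120 d (-1.25, edgeR adjusted p = 0.108) and without library 2 of 400 d (-1.91, edgeR adjusted p = 0.132).

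ICAM1, the ligand on vessel cells, fell by 2.75 from 120 to 400 d (SE 0.55, edgeR adjusted p = 0.0222), from 6.81, 21.4 and 4.82 FPKM to 1.65, 1.25 and 1.92. It was still called without library 2 of 120 d (-1.82, edgeR adjusted p = 0.0189) but not without library 2 of 400 d (-2.60, edgeR adjusted p = 0.0692). FERMT3 (kindlin-3), which switches leukocyte integrins on, gave -1.51 (SE 0.47, edgeR adjusted p = 0.0639) in that pair with overlapping libraries. Of the 8 matched genes among the 12 listed as integrin partners and ligands, 2 fell and 0 rose from 120 to 400 d, where 9.21% of all features were called lower, with a median log2 change of -1.06 against 0.0 over all features.

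**Figure D3:**
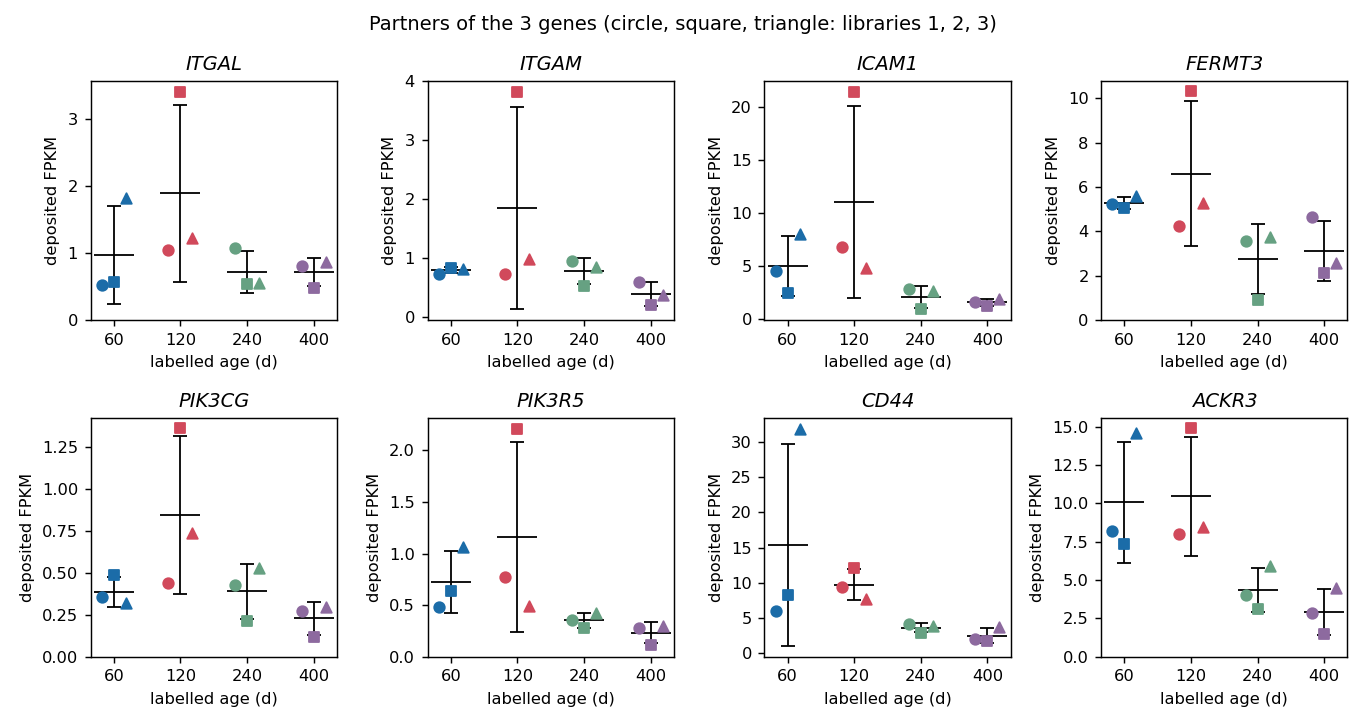
FPKM (vertical axis, linear) of 8 partners of ITGB2, PIK3R6 and MIF in each library against labelled age in days, with the mean as a horizontal bar and the SD (n = 3) as the error bar. Library 2 of 120 d (square) is the highest point for ITGAL (3.4), ITGAM (3.82), ICAM1 (21.4), PIK3CG (1.36) and PIK3R5 (2.21 FPKM), whereas CD44 peaks in library 3 of 60 d (31.9 FPKM).

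The catalytic partner of PIK3R6 and the alternative regulatory subunit of PI3K gamma were also scarce. PIK3CG, the catalytic subunit, was 0.355, 0.488 and 0.320 FPKM in the 60 d group, 0.439, 1.36 and 0.734 in the 120 d group, 0.425, 0.212 and 0.531 in the 240 d group and 0.274, 0.118 and 0.297 in the 400 d group, on 6 to 80 counts. PIK3R5 was 0.484, 0.634 and 1.06 FPKM in the 60 d group, 0.777, 2.21 and 0.490 in the 120 d group, 0.357, 0.282 and 0.423 in the 240 d group and 0.282, 0.115 and 0.300 in the 400 d group, on 7 to 134 counts. Unlike PIK3R6, neither had all 3 libraries of 120 d above the rest.

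PIK3CG fell by 1.85 on the log2 scale from 120 to 400 d (SE 0.50, edgeR adjusted p = 0.0450). PIK3R5 fell by 2.28 in that pair (SE 0.60, edgeR adjusted p = 0.0409), and from 60 to 400 d it fell by 1.61 (SE 0.44, edgeR adjusted p = 0.0472). All 3 calls were lost without library 2 of 400 d (-1.56, -2.02 and -1.37, edgeR adjusted p = 0.112, 0.112 and 0.128), and both from 120 to 400 d without library 2 of 120 d (-1.32 and -1.40, edgeR adjusted p = 0.110 and 0.0801). Among the other class I PI3K genes the ubiquitous catalytic subunits rose from 120 to 400 d: PIK3CA by 0.68 (SE 0.15, edgeR adjusted p = 0.0259) and PIK3CB by 0.84 (SE 0.20, edgeR adjusted p = 0.0337). PIK3CA also rose from 60 to 400 d, by 0.88 (SE 0.25, edgeR adjusted p = 0.0481). PIK3R3, a regulatory subunit of those enzymes, fell by 0.87 from 120 to 240 d (SE 0.19, edgeR adjusted p = 0.0435) and from 120 to 400 d it fell by 1.14 (SE 0.18, edgeR adjusted p = 0.0138). Of these, the fall of PIK3R3 from 120 to 400 d was called without either library 2 of 120 d (-1.05) or library 2 of 400 d (-1.13). The rises from 120 to 400 d were lost without either (PIK3CA 0.68 and 0.62, PIK3CB 0.85 and 0.89), as were the fall of PIK3R3 from 120 to 240 d without the former (-0.77) and the rise of PIK3CA from 60 to 400 d without the latter (0.80).

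Of the 4 matched receptors and binding partners of MIF, CD44, ACKR3 and CXCR4 each fell in at least 1 pair of ages, and COPS5 was called in none. CD44, the signalling co-receptor, was 5.99, 8.32 and 31.9 FPKM in the 60 d group, 9.38, 12.1 and 7.72 in the 120 d group, 4.18, 2.96 and 3.90 in the 240 d group and 2.04, 1.76 and 3.70 in the 400 d group. Like MIF, CD44 had every library of 60 and 120 d above every library of 240 and 400 d. That split was not counted over all features. CD44 fell in 3 pairs, with a log2 change of -2.73 (SE 0.63, edgeR adjusted p = 0.0301) from 60 to 400 d, -1.52 (SE 0.22, edgeR adjusted p = 0.0289) from 120 to 240 d and -2.20 (SE 0.33, edgeR adjusted p = 0.0136) from 120 to 400 d.

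ACKR3, an atypical receptor for CXCL12 and MIF, fell by 1.72 from 60 to 400 d (SE 0.44, edgeR adjusted p = 0.0399), and from 120 to 400 d it fell by 1.82 (SE 0.41, edgeR adjusted p = 0.0296). CXCR4 fell by 1.33 from 120 to 240 d (SE 0.26, edgeR adjusted p = 0.0390) and gave -1.23 (SE 0.57, edgeR adjusted p = 0.163) from 120 to 400 d. COPS5 (JAB1), an intracellular partner of MIF, was between 32.9 and 51.5 FPKM in the 12 libraries and gave 0.24 (SE 0.15, edgeR adjusted p = 0.288) from 120 to 400 d. Also without library 2 of 120 d, CD44 was called in both pairs that start at 120 d (-1.32 and -2.0), while CXCR4 (-1.14 from 120 to 240 d) and ACKR3 (-1.47 from 120 to 400 d) were not. With library 2 of 400 d left out, CD44 was called from 120 to 400 d (-1.93) but not from 60 to 400 d (-2.47), and ACKR3 was called in neither (-1.51 and -1.43). CD74 and CXCR2, the other receptors of MIF, were not matched to a feature and are not analysed here.

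Over the 4 lists of partners, 22 of 33 genes were matched and 21 were tested. From 120 to 400 d 7 fell and 2 rose, where 9.21% of all features were called lower and 7.08% higher. From 60 to 400 d 3 fell and 1 rose, where 7.71% were called lower and 7.3% higher, and from 120 to 240 d 3 fell and 0 rose, where 3.46% were called lower. In the other 3 pairs 0 of 21 were called by edgeR. There 4, 7 and 0 of the 21 had an unadjusted edgeR p under 0.05 from 60 to 120, 60 to 240 and 240 to 400 d. Over all features 999 of 12945, 3474 of 12926 and 1591 of 12660 did. DESeq2 called 0, 2 and 0 of the 21 in these pairs, beside 31, 1430 and 163 of all features. Without library 2 of 120 d, 3 of 21 fell and 0 rose from 120 to 400 d, and 1 fell and 0 rose from 120 to 240 d, where 5.09% and 0.83% of features were called lower. When library 2 of 400 d was left out, 2 fell and 0 rose from 120 to 400 d, where 2.36% were called lower, and the calls from 60 to 400 d were lost.

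Leukocyte marker genes moved with ITGB2. Of 47 listed genes of pan-leukocyte, macrophage, granulocyte and lymphocyte type 35 were matched, and 25 to 28 were tested in each pair. From 120 to 400 d 12 of 28 fell and 0 rose, with a median log2 change of -2.23, where 9.21% of all features were called lower. From 120 to 240 d 5 fell and 0 rose (median -1.85), where 3.46% were called lower. From 60 to 400 d 8 of 27 fell and 0 rose (median -1.04), where 7.71% were called lower, and from 60 to 240 d SPI1 alone did, where 2.27% were called in either direction, while all features had a median between -0.03 and 0.0 in these pairs. Without library 2 of 120 d, 5 of 27 fell from 120 to 400 d (median -1.24), where 5.09% of features were called lower, and the calls from 120 to 240 d were lost (median -0.91). Once library 2 of 400 d was left out, the leukocyte calls of the pairs 120 to 400 d and 60 to 400 d were all lost, with medians of -1.83 and -0.69, where 2.36% and 0.0% of features were called lower.

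In the pairs 60 to 120 d and 240 to 400 d 0 leukocyte genes were called by edgeR or DESeq2, and 8 of 28 and 4 of 25 had an unadjusted p under 0.05 by edgeR. Over all features 999 of 12945 and 1591 of 12660 had such a p. Of the 12 that fell from 120 to 400 d, 9 were on the macrophage and monocyte list: the complement genes C1QA, C1QB and C1QC, the receptors CSF1R, MRC1, MSR1 and CD14, the adaptor TYROBP and the transcription factor SPI1. SPI1 (PU.1) fell by 1.54 (SE 0.37, edgeR adjusted p = 0.0330) and the log2 change of C1QB was -3.23 (SE 0.57, edgeR adjusted p = 0.0170). The summed level of the 35 genes spanned, in order of age, 176 to 287, 190 to 656, 86.4 to 135 and 30.2 to 93.7 FPKM. Of the 5 matched granulocyte genes, MPO, a granule enzyme of neutrophils, was at 0 in all 12 libraries. S100A8, ELANE and CXCL8 had at most 9 counts in a library and were not tested. CSF3R held 2 to 66 counts per library and fell by 2.42 on the log2 scale from 60 to 400 d (SE 0.62, edgeR adjusted p = 0.0394). The part of leukocyte RNA in the changes of ITGB2, PIK3R6 and MIF was not tested.

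**Figure D4:**
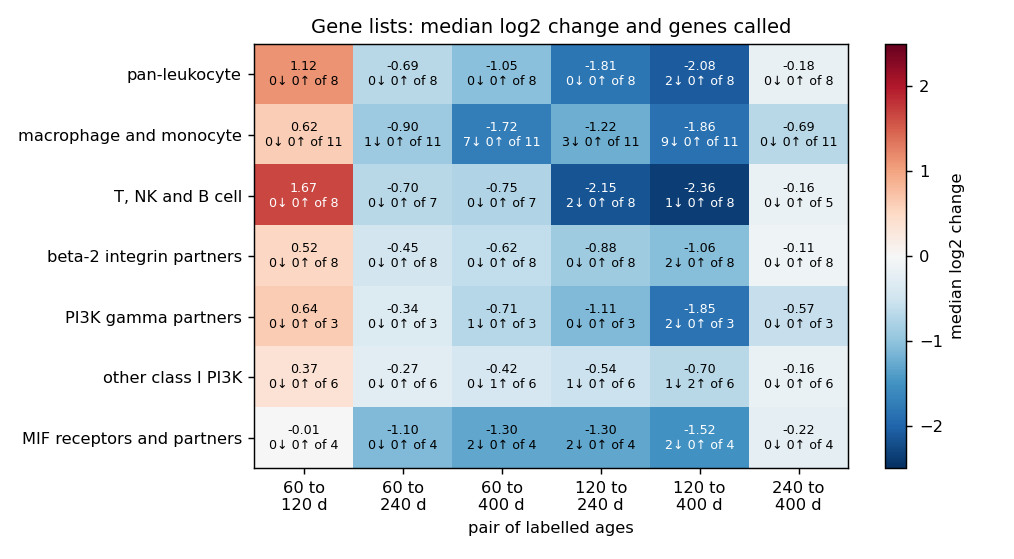
Median log2 change (colour and upper number) of 7 gene lists in the 6 pairs of labelled ages, with the number of genes called lower (down arrow) and higher (up arrow) of those tested. The macrophage and monocyte list has most calls, 9 of 11 lower from 120 to 400 d, and the list of other class I PI3K genes is the one with genes called higher.

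ITGB2 ran close to the general leukocyte level from pig to pig. Its log2 level over the 12 libraries was compared with that of the summed FPKM of 8 pan-leukocyte genes, a list that holds none of the 3 genes; the 3 relations share libraries and depth. Pearson's r was 0.973 (permutation p = 2e-05) and Spearman's coefficient 0.916 (permutation p = 0.00014). Without the 2 libraries farthest from the median of the sum, library 2 of 120 d and library 2 of 400 d, r was 0.902. For deviations from the age means r was 0.959 over all 12 libraries. That value includes the same 2 libraries and is not given without them, so how far the relation held among the other pigs of 1 labelled age was not tested. The log2 ratio of ITGB2 to the sum had an SD of 0.34 over the 12 libraries, against 1.26 for the level of ITGB2 itself.

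PIK3R6 gave r = 0.698 (permutation p = 0.0079) and a Spearman's coefficient of 0.615 (permutation p = 0.038), but r was 0.475 without the same 2 libraries and 0.408 for deviations from the age means, so the relation rested in part on those libraries. MIF gave r = 0.548 (permutation p = 0.064) and a Spearman's coefficient of 0.685 (permutation p = 0.016). Without the 2 libraries r was 0.690 for MIF, and for deviations from the age means over all 12 libraries it was -0.137. The latter value includes the same 2 libraries, so the relation among the other pigs of 1 labelled age was not tested for MIF either. In library 2 of 120 d, where the sum was 121 FPKM, MIF stood at 148 FPKM, within 137 to 149 FPKM of its age. In library 2 of 400 d, where the sum was 5.50 FPKM, it stood at 95.7 FPKM, the highest of that age.

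**Figure D5:**
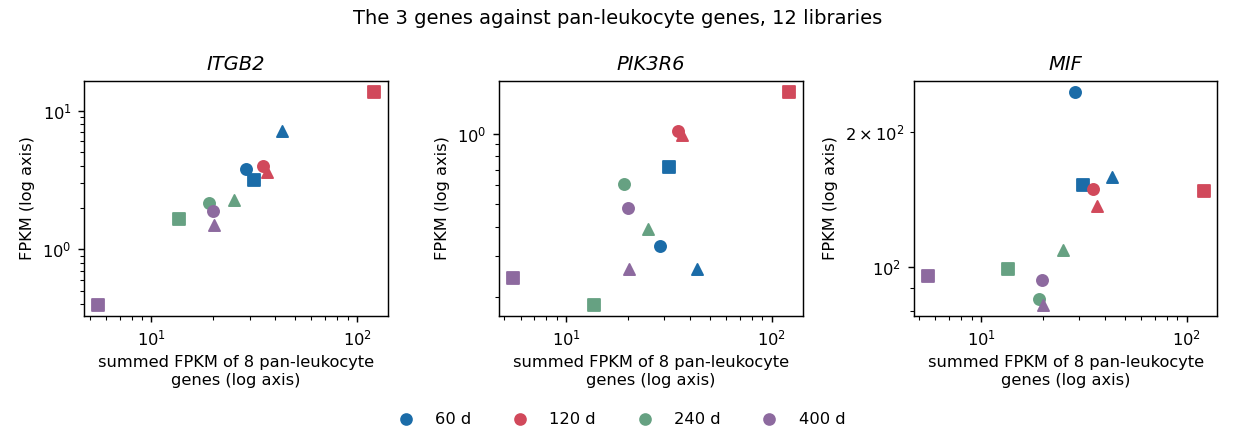
FPKM of ITGB2, PIK3R6 and MIF (vertical log axis) against the summed FPKM of 8 pan-leukocyte genes (horizontal log axis) in the 12 libraries, coloured by labelled age, with circle, square and triangle for libraries 1, 2 and 3. ITGB2 lies along a line (r = 0.973) and PIK3R6 scatters (r = 0.698). MIF lies higher at 60 and 120 d than at 240 and 400 d, with r = 0.548.

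The features whose levels were most like each gene also differed. Among 8389 other features with a symbol, the highest r with ITGB2 over the 12 libraries belonged to FMNL1 (0.980), a formin of blood cells, ARHGEF2 (0.968), the kinases LYN (0.966) and FES (0.965), and SLC1A5 (0.965), a glutamine transporter. The 28 leukocyte genes compared had a median r of 0.890 with ITGB2, against 0.004 for all features. For PIK3R6 the first were PFKFB3 (0.912), an enzyme that sets the pace of glycolysis, CCDC82 (0.907), SLC35E2B (0.905), PRKD2 (0.894), a protein kinase D, and ATG16L2 (0.891), and the leukocyte genes had a median of 0.650.

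For MIF the first were TRAPPC5 (0.957), of a vesicle tethering complex, RUVBL2 (0.952), an ATPase of chromatin complexes, SEC61B (0.951), of the protein channel into the endoplasmic reticulum, COPS9 (0.951), of the COP9 signalosome, and LOC100520127 (0.947). The leukocyte genes had a median r of 0.544 with MIF, and 0 of the 28 stood among the 100 features most like it, against 4 for ITGB2 and 1 for PIK3R6. These correlations describe the 12 libraries, which share age groups and the libraries that stood apart.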

How the data were processed

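Total RNA of longissimus dorsi muscle from 12 castrated male Laiwu pigs was sequenced, 1 library per pig. The authors mapped cleaned reads to Sscrofa10.2 with TopHat2 and computed FPKM with Cufflinks. The submitters' processing notes name Bowtie 0.12.2, Cufflinks and the build mm8, a mouse build, while the loci in the files carry pig identifiers. The authors deposited whole-number read counts per gene, not normalized, beside the FPKM values, and FPKM depends on the transcript length they used. The program that counted the reads and the strand setting are not given in the sources used here. The files also hold 12 columns of values normalized by the authors, which were not used.

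Ages were taken from the labels and the columns of a file were its 3 libraries. Files were joined by identifier and locus into 22658 features. Symbols were found for 11958 features, 11472 of them from the reference table of gene names and the others from the published gene lists. Counts were tested with edgeR 4.0.16 (quasi-likelihood, TMM) between each of 6 pairs of ages on the 6 libraries concerned, over features that averaged 10 counts or more at 1 age or both, with Benjamini-Hochberg adjustment over all features tested and a threshold of 0.05. The 4 ages were compared by an exact permutation test (two-sided by construction) of the F statistic of log2(FPKM + 0.1), and correlations by 100000 permutations. The fits were tested on simulated data.

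The alternatives were DESeq2 1.42.0, limma 3.58.1 on FPKM, other filters, scalings and thresholds, each library left out, and the ages of the published lists. Leaving out the ACTA1 feature, and leaving out library 2 of 120 d or of 400 d for the listed partners and markers, were chosen after seeing the data. The 3 genes and all lists were chosen with earlier results of these data known, so no p was adjusted over them alone, although an adjustment over the 3 genes had been planned. The genes named were the 3, the listed partners that bind them or were called, and the 5 most correlated features with each. A few markers were named after their values were seen: SPI1, C1QB, HBB, the granulocyte genes and the macrophage genes called, and all genes of the closing section. The published columns of fold changes and p-values were not used. No sequences are printed.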

Additional observations from a re-analysis of the deposited data

How the results depend on the processing

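Of the 18 changes of ITGB2, PIK3R6 and MIF, all 18 kept direction and side of the threshold with the size factors of DESeq2, without a filter on low counts, with the legacy edgeR fit and without the ACTA1 feature. With a minimum mean of 50 counts the 12 of ITGB2 and MIF did so, and PIK3R6 had too few counts to be tested. DESeq2 added 6 calls: ITGB2 from 60 to 240 d (-1.15), 60 to 400 d (-1.79) and 120 to 240 d (-1.82), PIK3R6 from 120 to 240 d (-1.54), and MIF from 60 to 240 d (-0.89) and 120 to 240 d (-0.57). One fit of all 12 libraries added ITGB2 from 60 to 400 d (-1.78) and MIF from 60 to 240 d (-0.90). ITGB2 from 120 to 400 d was lost by limma on log2(FPKM + 0.1) and on log2(FPKM + 1), at -2.35 and -1.69. The 4 calls, at -2.44 for ITGB2, -1.79 for PIK3R6, and -0.99 and -0.69 for MIF, were all lost at an adjusted p of 0.01 with a log2 change of at least 1. On FPKM without a logarithm the exact permutation p of ITGB2 over the 4 ages was 0.0926.

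With the ages of the published lists, the changes of ITGB2 became 1.76 from 60 to 240 d, 2.44 from 60 to 400 d, 1.15 from 120 to 240 d, 1.82 from 120 to 400 d and 0.65 from 240 to 400 d. Those of PIK3R6 became 0.37, 1.79, 0.14, 1.53 and 1.38 in the same pairs. Those of MIF became 0.11 from 60 to 120 d, 0.99 from 60 to 240 d, 0.69 from 60 to 400 d, 0.89 from 120 to 240 d and 0.57 from 120 to 400 d. The other 3 of the 18 kept their sign and side.

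With 1 library left out at a time, the log2 change of ITGB2 ran from -0.25 to 1.08 (60 to 120 d), -1.36 to -0.72 (60 to 240 d), -2.22 to -1.32 (60 to 400 d), -2.12 to -0.91 (120 to 240 d), -2.89 to -1.54 (120 to 400 d) and -1.07 to -0.22 (240 to 400 d). That of PIK3R6 ran from 1.12 to 1.97 (60 to 120 d), -0.61 to 0.46 (60 to 240 d), -0.78 to 0.19 (60 to 400 d), -2.02 to -1.24 (120 to 240 d), -2.18 to -1.54 (120 to 400 d) and -0.65 to 0.24 (240 to 400 d). That of MIF ran from -0.46 to -0.09 (60 to 120 d), -1.02 to -0.63 (60 to 240 d), -1.14 to -0.74 (60 to 400 d), -0.65 to -0.49 (120 to 240 d), -0.73 to -0.63 (120 to 400 d) and -0.20 to -0.03 (240 to 400 d). Over the 4 ages the exact permutation p ran from 0.00682 to 0.0573 for ITGB2 and from 0.0194 to 0.102 for PIK3R6.

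Features called in any pair numbered 3156, against 2022 by limma on log2(FPKM + 0.1), 5 at the stricter threshold and 1141 to 3316 with 1 library left out (1319, 1141 and 1180 without library 1, 2 or 3 of 400 d). Leukocyte genes called numbered 14, against 27 by DESeq2, 7 and 8 by the 2 limma fits, 0 at the stricter threshold (14 at the main one) and 6 to 14 with 1 library left out (8 without library 2 of 120 d, and 7, 6 and 6 without library 1, 2 or 3 of 400 d). The cause of these shifts was not tested. No paired analysis was possible because each age holds other pigs and the labels give no number shared between ages. With 3 pigs per age and 277 counts of PIK3R6 in all, small changes of PIK3R6 were not detectable at this depth.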

Other observations

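Marker genes of other cell types in muscle also moved between the labelled ages. Of 4 matched endothelial genes, 2 fell and 0 rose from 60 to 400 d and from 120 to 400 d, where 7.71% and 9.21% of all features were called lower: KDR, a receptor for vascular growth factor, gave -1.48 (SE 0.36, edgeR adjusted p = 0.0333) and -1.17 (SE 0.32, edgeR adjusted p = 0.0465), and EGFL7 gave -0.73 (SE 0.20, edgeR adjusted p = 0.0461) and -1.06 (SE 0.16, edgeR adjusted p = 0.0136). The other endothelial genes were not called, with -1.03 and -0.79 for PECAM1 and -0.35 and 0.12 for TEK. Of 3 matched fibroblast genes, COL3A1, a fibrillar collagen, went from 667 FPKM at 60 d and 655 at 120 d to 162 at 400 d, with log2 changes of -2.01 (SE 0.53, edgeR adjusted p = 0.0415) and -2.01 (SE 0.40, edgeR adjusted p = 0.0222), and DCN (decorin) gave -0.92 from 120 to 400 d (SE 0.23, edgeR adjusted p = 0.0382). LUM (lumican) was not called, with -1.23 and -0.97. The adipocyte genes PLIN1, LEP and CIDEC were called in none of these pairs, with log2 changes of 0.12, 1.84 and -0.78 from 60 to 400 d and 0.37, 2.12 and 0.21 from 120 to 400 d. With library 2 of 400 d left out, the endothelial, fibroblast and erythroid calls from 60 to 400 d were lost, and from 120 to 400 d EGFL7 (-1.04, edgeR adjusted p = 0.0428) was the one still called. With library 2 of 120 d left out, KDR (-0.86, edgeR adjusted p = 0.104) and DCN (-0.79, edgeR adjusted p = 0.0791) lost their calls from 120 to 400 d.

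In the same muscle RNA, the erythroid genes HBB, ALAS2 and GYPC fell from 60 to 400 d, by log2 changes of -2.78 (SE 0.59), -2.34 (SE 0.57) and -1.24 (SE 0.27), with edgeR adjusted p of 0.0249, 0.0349 and 0.0273. Library 2 of 120 d, where 27 of 34 leukocyte genes were highest, held the highest level of 0 of the 4 erythroid, 0 of the 4 endothelial and 0 of the 3 fibroblast genes. HBB was at 30.5 FPKM there, its lowest level in the 12 libraries. These genes were chosen after their values were seen, and all directions depend on the labelled ages.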
